A study of Mus musculus with 12 samples.

Results

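The eyelids of mice on a high-fat diet were compared with those of mice on a standard diet at the single collection time of 21h. The comparison rests on 4 of the 12 RNA sequencing libraries of the study, chosen by their labels alone. The high-fat group (HF at 21h) is a pair of libraries, replicates 3 and 6, from male C57BL/6 mice given a diet with 60 kcal% fat. The standard-diet group (CTL at 21h) is a pair of libraries, replicates 1 and 2, from age-matched male C57BL/6 mice given a diet with 10 kcal% fat. No mutant allele or drug is named for any group. All mice were 6 to 8 weeks old when they entered the study, adapted for 1 week and lived under 12 h of light per day. The diet lasted 3 months by the sample labels and 4 months by the series text. The other 8 libraries are the same groups at 9h and 15h, again in pairs, and they served here to estimate the spread between libraries and to show values side by side. Nothing in the sources tells whether a library came from a single mouse or from pooled mice. Every p-value therefore measures the spread between these libraries, which may be technical.

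The label of the tissue is meibomian gland, the gland of the lid margin whose cells fill with wax esters and cholesteryl esters, burst, and release them as the oil layer of the tear film. By the series text, however, the lids were taken whole. Interferons are secreted proteins that bind receptors on nearby cells and switch on, through factors of the STAT and IRF families, a large set of antiviral and antigen-presenting genes. Interferon gamma comes mainly from T cells and natural killer cells. Such genes are active at a low level in healthy skin and mucosa, where lymphocytes reside.

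The 4 libraries of 21h held 14096362 and 16629317 reads in HF, against 14887709 and 15868395 reads in CTL, as recovered from the steps between values, and all 12 held 14096362 to 17889158. Values are FPKM, reads scaled to exon length and library depth, and pairs are always written as HF replicates 3 and 6 and CTL replicates 1 and 2. Differences are HF minus CTL on log2(FPKM + 1), with the standard error of the limma fit (n = 2 against 2), and this scale understates the change of low genes. Meibomian markers were abundant in all 4 libraries: the wax ester synthase gene Awat2 had 1327 and 1147 FPKM in HF, against 840.1 and 1132 FPKM in CTL. Skeletal muscle was present as well, with Acta1, the muscle actin gene, at 814 and 914 FPKM in HF, against 1208 and 721 FPKM in CTL. So were skin (Krt14), hair follicle (Krt71) and conjunctiva (Krt13), at 1509 to 2052, 382 to 712 and 499 to 988 FPKM, so the libraries are lid and not pure gland. A gene counts as changed only with a Benjamini-Hochberg adjusted p under 0.05 over the 13228 genes tested.

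At 21h the gene lists with the lowest medians in HF against CTL were the interferon GTPases, the interferon effectors, the cytotoxic lymphocyte genes and the genes of antigen presentation on MHC class I and II. Among single genes, some of the cornified skin layer lay as low or lower, and these were highest in CTL replicate 1. A single gene, the chemokine receptor gene Cxcr3, passed the test, which is 0.00756% of the genes tested, and none was called higher. At an unadjusted p under 0.05 there were 711 genes (5.37%), 509 lower (3.85%) and 202 higher (1.53%). The groups did not overlap for 5005 genes (37.8%), 2937 lower in HF (22.2%) and 2068 higher (15.6%). With a difference of at least 2-fold added, 164 genes were left (1.24%), 154 lower (1.16%) and 10 higher (0.0756%). So a gene without overlap is common here, and a gene without overlap that is also 2-fold apart is not, mainly on the lower side. The counts without overlap given for each list below are to be set beside these shares of 22.2% lower and 15.6% higher.

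**Figure D1:**
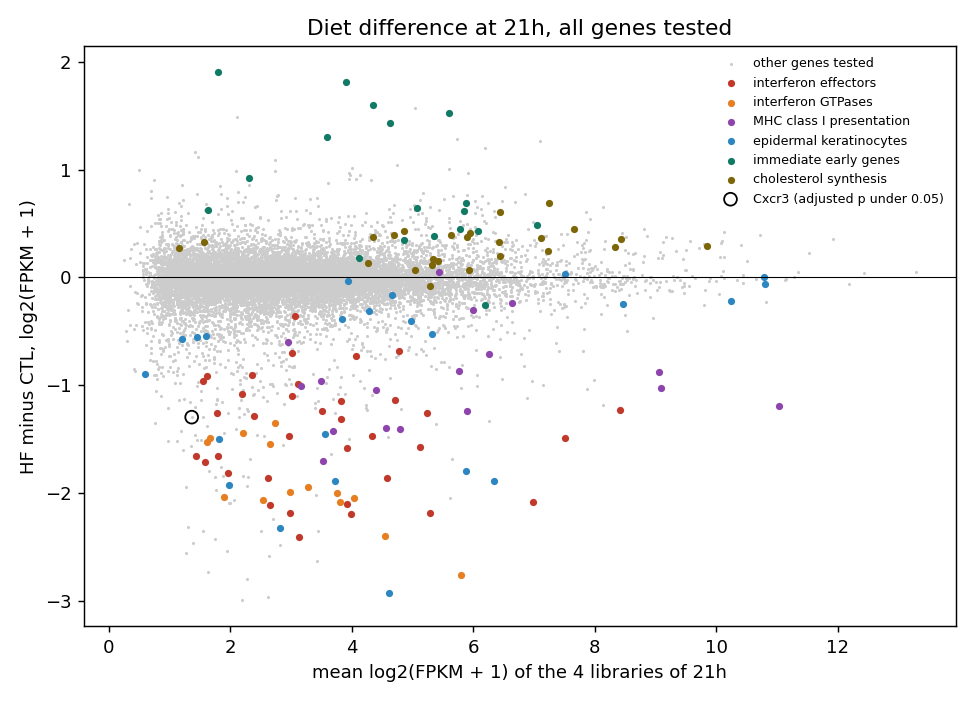
Difference HF minus CTL at 21h on log2(FPKM + 1) (vertical) against the mean log2(FPKM + 1) of the 4 libraries (horizontal) for the 13228 genes tested, with 6 gene lists in colour and Cxcr3 ringed. All 36 interferon effectors and all 14 interferon GTPases tested lie below 0, while most cholesterol genes lie slightly above it.

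Cxcr3 encodes the receptor by which activated T cells follow the interferon-induced chemokines CXCL9 and CXCL10. Cxcr3 had 0.738 and 0.556 FPKM in HF, against 2.99 and 3.09 FPKM in CTL. Both HF libraries lay far below both CTL libraries, and the libraries within a group were close. The gene fell by 1.30 ± 0.13 on the log2 scale (adjusted p = 0.0429). The call was lost without any single library of 21h, where the adjusted p lay between 0.143 and 0.373, while the difference stayed between -1.38 and -1.22. It was also lost with a pseudocount of 0.1, with no filter on low values, with the 4 libraries of 21h alone, with limma-voom on recovered reads, and without any of the 9h or CTL 15h libraries, whereas leaving out either HF library of 15h gave 27 calls, all lower. The level is low, since a single read over 2 kb of exon amounts to 0.0301 to 0.0355 FPKM at these depths. Over all 12 libraries, Cxcr3 had 0.415 to 0.828 FPKM in HF and 1.84 to 3.25 FPKM in CTL. It therefore passed the filter of 1 FPKM only through the CTL libraries, the group in which it is higher.

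Promoter sequences are shown for Cxcr3 and for 4 interferon-induced genes with large differences, because interferon-activated factors are known to bind short repeats of GAAA. The sequences are the 250 bases before the start of transcription from RefSeq on GRCm38.p6, written 5′ to 3′ on the strand of the gene. Capitals mark matches to GAAANNGAAA on either strand (TTTCNNTTTC on the other) and to TTCNNNGAA, the spacing of the element through which interferon gamma acts, which is its own reverse complement. Neighbouring matches to GAAANNGAAA may overlap. The stretches are chr4:156200819-156201068, minus strand, for Isg15, chr5:120907526-120907775, minus strand, for Oas1a, chr19:34640639-34640888, plus strand, for Ifit1, chr3:142620413-142620662, plus strand, for Gbp2, and chrX:101734148-101734397, minus strand, for Cxcr3.
Isg15: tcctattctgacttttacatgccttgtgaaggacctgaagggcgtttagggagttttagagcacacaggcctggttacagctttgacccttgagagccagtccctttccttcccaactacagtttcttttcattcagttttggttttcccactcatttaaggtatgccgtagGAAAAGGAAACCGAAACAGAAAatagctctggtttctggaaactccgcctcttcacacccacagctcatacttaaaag
Oas1a: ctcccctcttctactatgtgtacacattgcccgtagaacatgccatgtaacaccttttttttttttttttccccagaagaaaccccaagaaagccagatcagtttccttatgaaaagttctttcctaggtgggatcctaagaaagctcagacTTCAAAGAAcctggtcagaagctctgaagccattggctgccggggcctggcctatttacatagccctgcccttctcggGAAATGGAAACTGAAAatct
Ifit1: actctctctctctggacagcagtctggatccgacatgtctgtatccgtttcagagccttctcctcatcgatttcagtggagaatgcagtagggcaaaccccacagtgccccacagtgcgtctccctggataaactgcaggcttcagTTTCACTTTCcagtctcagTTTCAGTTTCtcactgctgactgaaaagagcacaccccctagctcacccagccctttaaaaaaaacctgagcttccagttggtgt
Gbp2: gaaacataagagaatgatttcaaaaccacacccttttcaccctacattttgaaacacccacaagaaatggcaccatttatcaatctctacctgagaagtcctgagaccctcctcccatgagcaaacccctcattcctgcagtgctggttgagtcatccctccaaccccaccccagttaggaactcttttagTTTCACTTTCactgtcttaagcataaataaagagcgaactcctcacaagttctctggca
Cxcr3: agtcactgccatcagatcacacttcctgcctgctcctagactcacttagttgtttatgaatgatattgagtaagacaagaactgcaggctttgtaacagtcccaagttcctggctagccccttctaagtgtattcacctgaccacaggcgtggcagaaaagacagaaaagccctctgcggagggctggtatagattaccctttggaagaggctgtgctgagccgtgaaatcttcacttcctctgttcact
Isg15 held 3 overlapping matches to GAAANNGAAA, Oas1a 2 overlapping matches and 1 match to TTCNNNGAA, Ifit1 2 separate matches and Gbp2 1 match. Cxcr3 held no match in this window. Of the interferon GTPase genes, 10 of 14 had a RefSeq promoter here, and 9 of these (90.0%) held GAAANNGAAA. Of the interferon effector genes, 28 of 36 had one, and 12 of these (42.9%) held it. Of all genes tested, 349 of the 10468 with a promoter (3.33%) held it. For TTCNNNGAA the counts were 6 of 10 GTPase genes (60.0%), 4 of 28 effector genes (14.3%) and 754 of 10468 genes tested (7.2%). They were 3 of 16 sensors and transducers (18.8%), 1 of 14 MHC class I genes (7.14%) and 0 of 5 MHC class II genes. The cytotoxic list had 1 of 4 (25.0%) and the lymphocyte chemokine list 1 of 8 (12.5%). A match is a description of the letters and not a bound site.

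The interferon effectors are the antiviral proteins at the end of the pathway. All 36 of the list that were tested lay lower in HF without overlap, 28 of them by at least 2-fold, and none was called. Their median difference was -1.39, beside -0.01 for all genes tested. Across all 12 libraries, each of the 6 HF libraries lay below each of the 6 CTL libraries for 31 of the 36, which held for 246 (1.86%) of all genes. The median was -1.48 at 15h and -1.29 at 9h, so the values at 21h lay within the range of the other times. The 3 times use different libraries and so share no controls.

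Parp9 is a co-factor of interferon signalling that acts in a complex with Dtx3l. Parp9 had 6.14 and 6.80 FPKM in HF, against 15.9 and 17.3 FPKM in CTL. The HF libraries were nearly equal and both were far below the CTL pair. The difference was -1.24 ± 0.14, and its adjusted p of 0.054 was the smallest that missed the threshold. Dtx3l itself had 5.23 and 5.14 FPKM in HF, against 9.67 and 13.2 FPKM in CTL. Both HF values were below both CTL values (-0.99 ± 0.17, adjusted p = 0.149). Parp14, of the same family of ADP-ribosyl transferases, had 4.68 and 4.42 FPKM in HF, against 9.64 and 12.3 FPKM in CTL, again with no overlap (-1.10 ± 0.22).

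The Oas genes encode enzymes that sense double-stranded RNA and answer it with a small signalling molecule. Oas1a had 2.56 and 2.90 FPKM in HF, against 13.4 and 18.9 FPKM in CTL. Both CTL libraries were several times higher than both HF libraries (-2.18 ± 0.32, adjusted p = 0.146). Oas2 had 1.56 and 2.59 FPKM in HF, against 9.43 and 15.5 FPKM in CTL and Oas3 had 0.472 and 0.578 FPKM in HF, against 2.98 and 4.79 FPKM in CTL, in each case without overlap. Oas1g, a close copy of Oas1a whose reads can be confused with it, differed by -1.66 ± 0.33.

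Isg15 encodes a ubiquitin-like protein that is attached to other proteins. Isg15 had 14.4 and 20.9 FPKM in HF, against 55.5 and 122 FPKM in CTL. The groups did not overlap, but the CTL libraries differed from each other by more than 2-fold, and the standard error was wide (-2.18 ± 0.59, adjusted p = 0.396). Its partner enzymes lay lower in the same libraries: Usp18, which removes the tag, had 2.64 and 1.90 FPKM in HF, against 9.22 and 12.6 FPKM in CTL. Ube2l6, which helps to attach it, had 6.93 and 9.16 FPKM in HF, against 21.7 and 20.9 FPKM in CTL. Neither overlapped between groups (-1.86 ± 0.32 and -1.31 ± 0.28).

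The Ifit genes encode proteins that bind viral RNA, and Bst2 encodes a tether that holds virus particles to the cell. Ifit1 had 6.41 and 6.48 FPKM in HF, against 23.7 and 45.9 FPKM in CTL (-2.19 ± 0.47). Bst2 had 20.5 and 18.0 FPKM in HF, against 58.1 and 60.3 FPKM in CTL (-1.57 ± 0.24, adjusted p = 0.148). In both the HF libraries were nearly equal, while CTL replicate 2 was the higher control for Ifit1 by almost 2-fold. Ifi27l2a, a small mitochondrial protein gene and an abundant member of the list, had 59.4 and 61.7 FPKM in HF, against 215 and 313 FPKM in CTL (-2.08 ± 0.40). Ifitm3, a membrane protein gene that blocks virus entry, had 204 and 239 FPKM in HF, against 634 and 428 FPKM in CTL (-1.23 ± 0.27). The most abundant, Ifitm3, was highest in CTL replicate 1, unlike Ifit1 and Isg15. Rsad2, the gene of viperin, had 1.62 and 0.916 FPKM in HF, against 1.95 and 5.04 FPKM in CTL, so HF replicate 3 and CTL replicate 1 were close although the groups did not overlap.

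Outside the lists, several genes among the smallest p-values or the largest differences are also known to respond to interferon. Slfn4, of the Schlafen family, had 2.83 and 5.11 FPKM in HF, against 19.0 and 29.4 FPKM in CTL (-2.35 ± 0.39). Samhd1, whose enzyme breaks down nucleotides, had 10.0 and 13.1 FPKM in HF, against 28.8 and 25.9 FPKM in CTL (-1.18 ± 0.20). Ubd, a ubiquitin-like gene induced by interferon gamma, had 0.0762 and 1.36 FPKM in HF, against 8.59 and 7.92 FPKM in CTL (-2.54 ± 0.49). Each was lower in both HF libraries than in both CTL libraries. Tnfrsf14, a receptor gene of lymphocytes and epithelia, had 2.12 and 1.80 FPKM in HF, against 4.11 and 4.86 FPKM in CTL, and Misp, a gene of the cell cortex, had 1.64 and 2.22 FPKM in HF, against 4.79 and 6.86 FPKM in CTL, also without overlap (-0.89 ± 0.13 and -1.21 ± 0.20, adjusted p = 0.146 and 0.148).

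The sensors and transducers stand before the effectors. Of 19 tested, 16 lay lower in HF without overlap and none higher, with a median of -0.60. The largest difference of the list was that of Irf7, which amplifies the response. Irf7 had 5.69 and 6.70 FPKM in HF, against 17.2 and 26.4 FPKM in CTL (-1.64 ± 0.30). Stat2 had 7.40 and 7.64 FPKM in HF, against 17.4 and 21.6 FPKM in CTL (-1.26 ± 0.26). Neither overlapped between groups. The receptor gene Ifnar1 differed less, with 8.54 and 8.29 FPKM in HF, against 10.2 and 9.81 FPKM in CTL (-0.23 ± 0.15). So did the kinase gene Tyk2, with 6.22 and 6.47 FPKM in HF, against 6.03 and 6.99 FPKM in CTL (-0.03 ± 0.15). For Ifnar1 the groups were apart by a small step, and for Tyk2 they overlapped. Among cytosolic RNA sensors, Ifih1 had 3.55 and 3.56 FPKM in HF, against 6.83 and 9.41 FPKM in CTL (-0.99 ± 0.17), while Mavs, the adaptor they signal through, had 13.3 and 14.0 FPKM in HF, against 13.9 and 15.5 FPKM in CTL and overlapped (-0.10 ± 0.09).

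The interferon GTPases, guanylate-binding proteins and immunity-related GTPases that attack the vacuoles of intracellular microbes, had the lowest median of the lists. All 14 tested were lower without overlap and by at least 2-fold, with a median of -2.00 at 21h, -1.93 at 15h and -1.82 at 9h. Gbp2 had 10.5 and 38.5 FPKM in HF, against 151 and 136 FPKM in CTL. Both HF values were below both CTL values, but HF replicate 6 was well above HF replicate 3 (-2.76 ± 0.60, adjusted p = 0.191). Gbp3 had 3.37 and 4.57 FPKM in HF, against 19.3 and 16.7 FPKM in CTL, with closer HF libraries (-1.94 ± 0.26, adjusted p = 0.121). Igtp had 6.28 and 13.1 FPKM in HF, against 52.3 and 52.9 FPKM in CTL, and Irgm1 had 4.37 and 7.57 FPKM in HF, against 24.9 and 27.4 FPKM in CTL. Again HF replicate 6 was the higher HF library (-2.40 ± 0.57 and -2.00 ± 0.45). Without HF replicate 6 the median of the list was -2.31, and without HF replicate 3 it was -1.53. Tgtp1 and Tgtp2 are near-identical neighbours whose counts may be split, and their differences were -2.04 ± 0.50 and -2.06 ± 0.52.

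Genes of MHC class I presentation, which displays peptides of the cell's own proteins to CD8 T cells, followed with a median of -1.01 and 16 of 17 lower without overlap. B2m, the invariant light chain, was among the most abundant genes of the lid and had 1246 and 1532 FPKM in HF, against 3433 and 2903 FPKM in CTL. Both HF libraries were below both CTL libraries (-1.19 ± 0.26, adjusted p = 0.191). The heavy chain H2-K1 had 326 and 443 FPKM in HF, against 844 and 716 FPKM in CTL (-1.03 ± 0.22), with reads that can be shared among the H2 genes. The peptide transporter Tap1 had 11.5 and 16.1 FPKM in HF, against 39.8 and 35.2 FPKM in CTL (-1.40 ± 0.26). The immunoproteasome subunit Psmb9 had 4.05 and 7.15 FPKM in HF, against 21.1 and 18.7 FPKM in CTL (-1.70 ± 0.36). In each of these HF replicate 6 was the higher HF library and CTL replicate 1 the higher CTL library. Nlrc5, the activator of this gene set, had 5.05 and 5.66 FPKM in HF, against 11.7 and 11.9 FPKM in CTL with little spread inside either group (-1.01 ± 0.23). Psme2, a proteasome cap gene, differed least of the 16 (-0.24 ± 0.14), and Tapbpl overlapped (0.05 ± 0.16).

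MHC class II presents captured proteins to CD4 T cells, mainly on dendritic cells, macrophages and B cells. All 8 genes tested were lower in HF without overlap, and for all 8 each HF library of the 3 times lay below each CTL library. Their median was -0.95 at 21h, -1.21 at 15h and -0.67 at 9h. Cd74, the invariant chain, had 163 and 202 FPKM in HF, against 423 and 293 FPKM in CTL (-0.95 ± 0.27). H2-Ab1 had 72.4 and 87.0 FPKM in HF, against 218 and 139 FPKM in CTL (-1.12 ± 0.29). CTL replicate 1 was the higher control in both, and without it the median of the list was -0.67. Ciita, their master activator, had 0.878 and 1.05 FPKM in HF, against 2.44 and 1.98 FPKM in CTL (-0.70 ± 0.18).

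**Figure D2:**
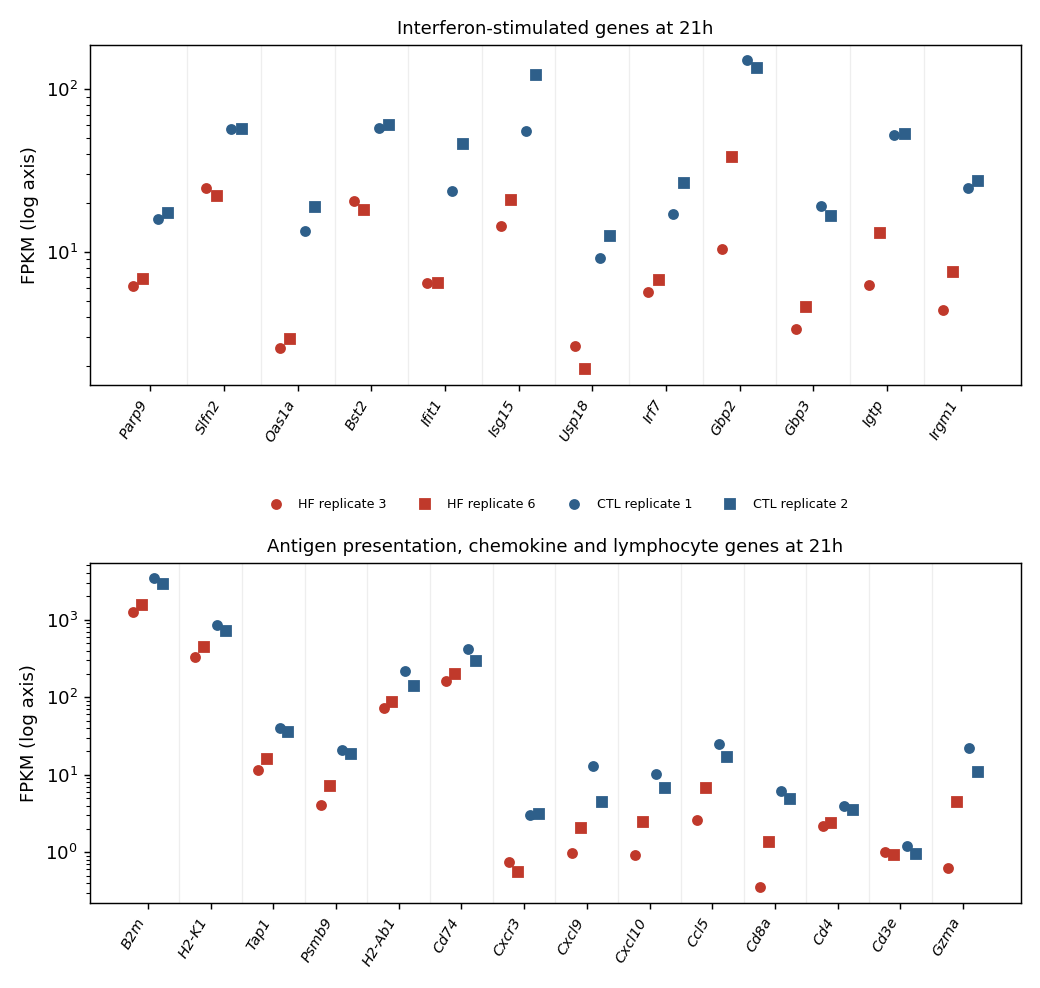
FPKM on a log axis in each of the 4 libraries of 21h, HF in red to the left of CTL in blue, for interferon-stimulated genes (top) and for antigen presentation, chemokine and lymphocyte genes (bottom). The groups do not overlap for any gene shown except Cd3e, and HF replicate 6 lies above HF replicate 3 for Gbp2, Igtp and Gzma.

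The lymphocyte chemokine list holds chemokines that draw lymphocytes and their receptors, Cxcr3 among them. Of 12 genes of that list tested, 9 lay lower without overlap, Cxcr3 included, and none higher, with a median of -0.63. The ligands of Cxcr3 were low in HF: Cxcl9 had 0.964 and 2.05 FPKM in HF, against 13.1 and 4.45 FPKM in CTL (-1.84 ± 0.55), and Cxcl10 had 0.914 and 2.48 FPKM in HF, against 10.2 and 6.72 FPKM in CTL (-1.85 ± 0.48). Ccl5, a chemokine that T cells and natural killer cells make, had 2.59 and 6.77 FPKM in HF, against 24.6 and 17.0 FPKM in CTL (-2.02 ± 0.43). The HF libraries of these 3 genes were below both CTL libraries, with HF replicate 6 the higher of the HF pair. Ccl20 and its receptor Ccr6 overlapped, with differences of -0.31 ± 0.47 and 0.02 ± 0.21.

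Among T cell genes the CD8 coreceptor stood out from the general T cell markers. In bulk tissue fewer cells of a type and less RNA per cell cannot be told apart. Cd8a had 0.351 and 1.34 FPKM in HF, against 6.08 and 4.83 FPKM in CTL (-1.85 ± 0.44), and Cd8b1 had 0.287 and 1.30 FPKM in HF, against 6.07 and 5.44 FPKM in CTL (-1.97 ± 0.42). Both lay below CTL in both HF libraries, lowest in HF replicate 3. Cd4, the helper coreceptor, had 2.20 and 2.37 FPKM in HF, against 3.93 and 3.55 FPKM in CTL (-0.53 ± 0.24). Cd3e, a chain of the receptor complex on all T cells, had 1.01 and 0.914 FPKM in HF, against 1.19 and 0.942 FPKM in CTL and overlapped (-0.07 ± 0.17), whereas Cd3d had 1.92 and 1.52 FPKM in HF, against 3.89 and 2.88 FPKM in CTL and did not (-0.68 ± 0.21). Of the 19 genes of the list tested, 14 lay lower without overlap, 1 of which was again Cxcr3, and the median was -0.50. Without CTL replicate 1 it was -0.31. The summed level of the list was 40.3 and 40.3 FPKM in HF, against 79.6 and 61.3 FPKM in CTL. Ctla4 and Icos, genes of regulatory and helper cells, overlapped (0.11 ± 0.32 and -0.15 ± 0.34).

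Few cytotoxic lymphocyte genes were abundant enough to be tested. All 6 tested were lower without overlap, with a median of -1.36. Genes this low in HF can pass the filter of 1 FPKM through the CTL libraries alone, as Cxcr3 did. The filter may therefore have favoured genes higher in CTL, and how far it shaped this count and median was not tested. Gzma, the gene of granzyme A, had 0.635 and 4.48 FPKM in HF, against 22.4 and 11.0 FPKM in CTL (-2.48 ± 0.75). Nkg7, a granule membrane gene, had 2.02 and 1.58 FPKM in HF, against 10.4 and 6.07 FPKM in CTL (-1.68 ± 0.45). Their HF values were all below their CTL values, and HF replicate 6 was above HF replicate 3 for Gzma but not for Nkg7. The other 8 genes of this list that the table holds did not reach 1 FPKM in at least 2 libraries. Among them Ifng, the gene of interferon gamma, had 0 and 0.139 FPKM in HF, against 0.882 and 0.438 FPKM in CTL, and Prf1, the gene of perforin, had 0.357 and 0.302 FPKM in HF, against 0.702 and 0.585 FPKM in CTL. At such levels a few reads decide the value, and no test was made.

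Genes of other immune cells were mixed, beside 22.2% of all genes tested that lay lower and 15.6% that lay higher without overlap. Of 16 macrophage genes tested, 10 lay lower without overlap and none higher (median -0.32, and -0.20 without CTL replicate 1). Adgre1, the gene of F4/80, had 6.95 and 8.08 FPKM in HF, against 9.07 and 9.42 FPKM in CTL, and Csf1r, the growth factor receptor gene, had 10.2 and 13.9 FPKM in HF, against 14.9 and 13.0 FPKM in CTL. The Csf1r values overlapped, and those of Adgre1 differed by -0.27 ± 0.45. Of 7 dendritic cell genes, 4 lay lower without overlap (median -0.26). Of 6 B and plasma cell genes, 1 lay lower and 1 higher, and Jchain, made by antibody-secreting cells, ranged over 27.1 and 154 FPKM in HF, against 17.9 and 80.2 FPKM in CTL. Mast cell and eosinophil genes lay the other way, 3 of 6 higher without overlap: Tpsb2, a mast cell tryptase gene, had 5.07 and 4.49 FPKM in HF, against 1.98 and 2.73 FPKM in CTL (0.79 ± 0.31). The neutrophil list had a median of -0.60, and of 0.06 without CTL replicate 1 and -1.07 without CTL replicate 2, and its defining gene Ly6g had 0.0753 and 0 FPKM in HF, against 0 and 0.0669 FPKM in CTL. Of 19 inflammatory cytokine genes, 12 lay lower and none higher without overlap, among them Tnf at 1.73 and 1.94 FPKM in HF, against 3.98 and 4.15 FPKM in CTL (-0.84 ± 0.26). Il6 and Cxcl1 were highest in HF replicate 6 and overlapped (0.31 ± 0.46 and 0.30 ± 0.92). Of 12 complement genes, 3 lay lower without overlap, a share near that of all genes tested. Their median of -0.27 was -0.16 without HF replicate 3, -0.48 without HF replicate 6, -0.03 without CTL replicate 1 and -0.50 without CTL replicate 2.

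Lipid genes of the gland lay on the other side of 0, by small steps. Of 26 meibocyte lipid genes, 18 were higher in HF without overlap and 1 was lower, none was called, and the median was 0.32. Among all genes tested, 15.6% were higher and 22.2% lower without overlap. Soat1, which makes cholesteryl esters, had 148 and 153 FPKM in HF, against 101 and 108 FPKM in CTL. Both HF libraries exceeded both CTL libraries and the libraries of a group were close (0.52 ± 0.14, adjusted p = 0.433). Elovl3, which lengthens fatty acids, had 538 and 511 FPKM in HF, against 363 and 406 FPKM in CTL (0.45 ± 0.21). Scd1, the desaturase whose reads were the most numerous of any gene in 3 of these 4 libraries, had 4362 and 4409 FPKM in HF, against 2993 and 3939.8 FPKM in CTL (0.35 ± 0.26). Awat2, given above, differed by 0.34 ± 0.23. For these genes CTL replicate 1 was the lowest library, and CTL replicate 2 lay nearer to HF. Without CTL replicate 1 the median was 0.15, and without CTL replicate 2 it was 0.52. The exception was Lpcat4, a phospholipid remodelling gene, at 21.4 and 27.5 FPKM in HF, against 32.0 and 30.7 FPKM in CTL (-0.36 ± 0.14). The summed level of the list was 15245 and 14508 FPKM in HF, against 10463 and 13263 FPKM in CTL. The median was 0.34 at 15h and 0.01 at 9h.

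Cholesterol synthesis showed the same small step, with 18 of 25 genes higher without overlap, none lower, and a median of 0.32. Mvk, the kinase of mevalonate, had 35.8 and 29.6 FPKM in HF, against 24.8 and 23.2 FPKM in CTL (0.43 ± 0.14). Pmvk, the next enzyme of the pathway, had 208 and 177 FPKM in HF, against 130.1 and 109 FPKM in CTL (0.69 ± 0.22). Neither overlapped, and both CTL libraries were close. Hmgcs1 had 372 and 342 FPKM in HF, against 265 and 322 FPKM in CTL (0.28 ± 0.12), also without overlap. The median was 0.15 without CTL replicate 1 and 0.51 without CTL replicate 2. Of 20 genes of fatty acid synthesis, 8 were higher and 1 was lower without overlap (median 0.18). That median was 0.03 without CTL replicate 1 and 0.29 without CTL replicate 2. Acacb, an acetyl-CoA carboxylase, had 30.7 and 25.3 FPKM in HF, against 18.2 and 20.3 FPKM in CTL (0.51 ± 0.16), and Fasn, the synthase, had 67.3 and 74.9 FPKM in HF, against 46.3 and 58.9 FPKM in CTL (0.44 ± 0.19). Of 11 genes of sterol efflux, 3 were higher and 2 lower (median 0.00), beside 15.6% higher and 22.2% lower of all genes tested. Of 12 regulators of the sebaceous lineage, 4 were higher and 1 lower, and Pparg, the factor that drives lipid filling, had 29.0 and 25.9 FPKM in HF, against 22.9 and 25.8 FPKM in CTL (0.17 ± 0.16).

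Of 18 genes of fatty acid oxidation, 7 lay higher and 1 lower without overlap, beside 15.6% and 22.2% of all genes tested. The median was 0.17, which was 0.13 without CTL replicate 1 and 0.28 without CTL replicate 2. Acadm, a dehydrogenase of that pathway, had 102 and 93.1 FPKM in HF, against 76.9 and 82.9 FPKM in CTL (0.29 ± 0.11), while Pdk4, a kinase gene that restrains glucose oxidation, had 87.0 and 46.7 FPKM in HF, against 77.3 and 47.7 FPKM in CTL and overlapped (0.07 ± 0.35). Of 13 genes of fatty acid uptake and sensing, 6 were higher and 1 lower. Their median was 0.20, which was 0.07 without CTL replicate 1 and 0.29 without CTL replicate 2. Lpl, which frees fatty acids from lipoproteins, had 17.0 and 18.3 FPKM in HF, against 14.1 and 10.8 FPKM in CTL (0.48 ± 0.17), and Ffar4, a receptor for long fatty acids, had 14.6 and 11.2 FPKM in HF, against 9.73 and 6.07 FPKM in CTL (0.66 ± 0.24). Of 12 adipocyte genes, 5 were higher and none lower, led by Adipoq, the gene of adiponectin, at 6.68 and 3.74 FPKM in HF, against 2.38 and 1.73 FPKM in CTL (0.99 ± 0.34). Lipe, the fat cell lipase, overlapped (-0.07 ± 0.15). The median of the adipocyte list was 0.29, which was 0.39 without CTL replicate 1 and 0.14 without CTL replicate 2. At 15h it was -0.05 and at 9h 0.30.

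**Figure D3:**
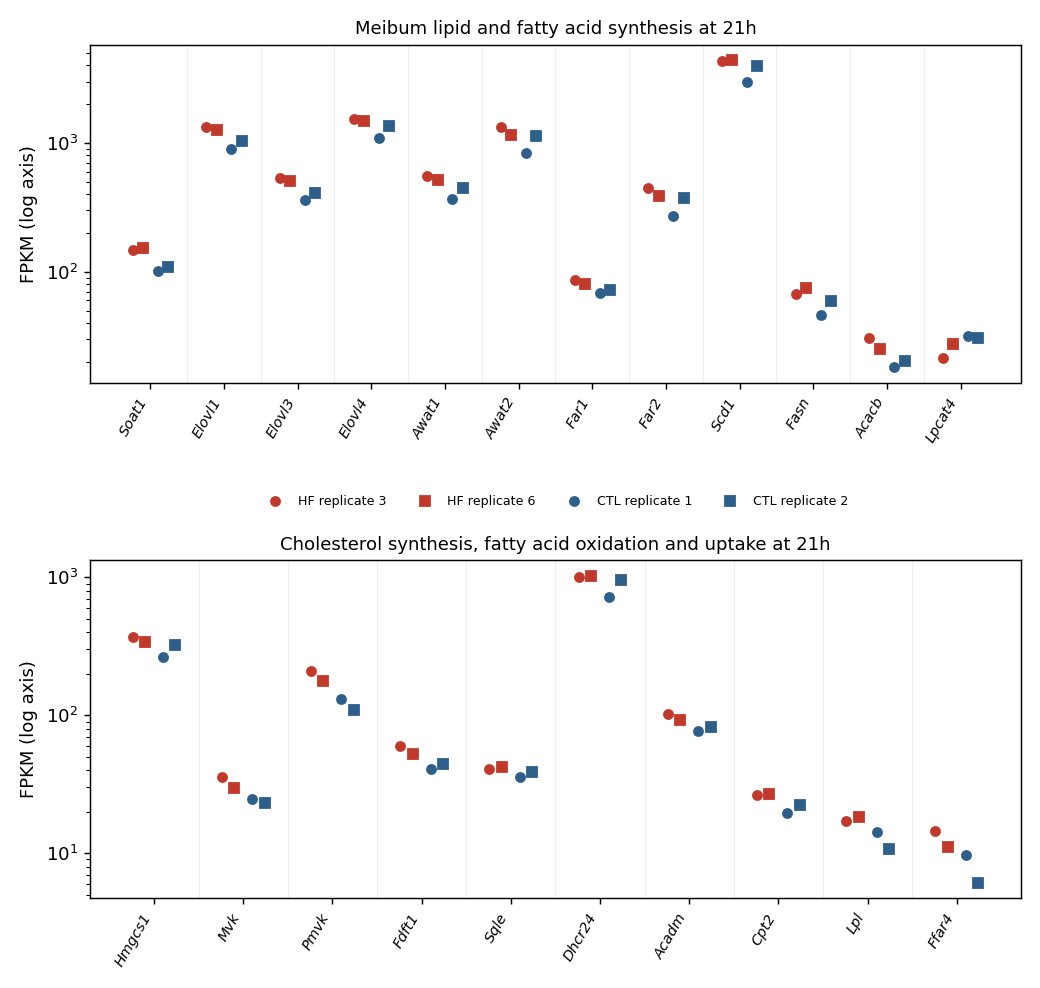
FPKM on a log axis in each of the 4 libraries of 21h, HF in red to the left of CTL in blue, for meibum lipid and fatty acid synthesis genes (top) and for cholesterol synthesis, fatty acid oxidation and uptake genes (bottom). HF lies above CTL by small steps for most genes, and Lpcat4 lies lower.

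Clock genes differed little at 21h. Their counts stand beside 15.6% of all genes tested that were higher and 22.2% that were lower without overlap. Of 7 clock activators and nuclear receptors, 4 were higher without overlap, among them Npas2, a relative of Clock, at 2.40 and 2.16 FPKM in HF, against 1.70 and 1.63 FPKM in CTL (0.30 ± 0.12). Arntl, the partner of both, had 3.06 and 2.46 FPKM in HF, against 2.38 and 1.77 FPKM in CTL (0.29 ± 0.21). Of 8 repressors, 2 were lower, and Per2 had 13.3 and 10.9 FPKM in HF, against 15.2 and 13.4 FPKM in CTL (-0.23 ± 0.18). The repressor median was 0.03 at 21h, 0.13 at 15h and 0.47 at 9h. Of 7 output genes, 2 were higher, and Dbp had 11.8 and 12.5 FPKM in HF, against 10.1 and 17.6 FPKM in CTL and overlapped. The insulin and IGF list split, with 4 of 13 higher and 3 lower. Irs2, an insulin receptor substrate, had 9.59 and 25.1 FPKM in HF, against 8.54 and 7.59 FPKM in CTL, high in HF replicate 6 alone (0.88 ± 0.47).

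Immediate early genes, which cells switch on within minutes of a stimulus, had the highest median of the lists (0.63), and this rested on HF replicate 6. Fos had 6.76 and 162 FPKM in HF, against 14.3 and 7.98 FPKM in CTL (1.60 ± 1.32). Egr1 had 13.1 and 116 FPKM in HF, against 15.7 and 12.6 FPKM in CTL (1.43 ± 0.85). Nr4a1 had 5.98 and 112 FPKM in HF, against 10.3 and 4.65 FPKM in CTL (1.82 ± 1.30). In each of them HF replicate 6 stood far above the other 3 libraries and HF replicate 3 was within or near the range of CTL. Without HF replicate 6 the median was -0.08 and without HF replicate 3 it was 1.43. Without overlap, 4 of 18 genes lay higher, beside 15.6% of all genes tested. The same library was high in Dusp1, a phosphatase gene that glucocorticoids also induce, at 34.3 and 191 FPKM in HF, against 31.6 and 24.1 FPKM in CTL, and in Btg2, a growth-restraining gene, at 61.6 and 193 FPKM in HF, against 45.8 and 48.5 FPKM in CTL. Pim3, a kinase gene, did not depend on it to that degree, with 101 and 125 FPKM in HF, against 72.6 and 63.9 FPKM in CTL (0.71 ± 0.18). Of 13 glucocorticoid targets, 4 were higher without overlap, with a median of 0.37, which was 0.02 without CTL replicate 2 and 0.60 without CTL replicate 1. Rasd1 had 3.65 and 10.2 FPKM in HF, against 2.71 and 0.782 FPKM in CTL (1.49 ± 0.49), and Fkbp5 had 17.9 and 12.2 FPKM in HF, against 18.0 and 9.46 FPKM in CTL and overlapped.

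Genes of the cornified layer of the skin lay at the opposite end, with CTL replicate 1 far above the other libraries. Lor, the gene of loricrin, had 7.34 and 8.48 FPKM in HF, against 233 and 18.6 FPKM in CTL (-2.93 ± 1.34). Krt10, a keratin of the upper epidermis, had 42.2 and 39.9 FPKM in HF, against 488 and 48.4 FPKM in CTL (-1.89 ± 1.26). Flg, the gene of filaggrin, had 1.03 and 1.01 FPKM in HF, against 22.5 and 1.51 FPKM in CTL (-1.93 ± 0.93). CTL replicate 1 was many times above the other 3 libraries, and CTL replicate 2 was the next highest, nearer to HF than to CTL replicate 1. The 6 named Lce1 genes of the cornified envelope (Lce1m, Lce1c, Lce1f, Lce1a2, Lce1l and Lce1i) had the same order, for example Lce1c at 1.76 and 0.748 FPKM in HF, against 45.6 and 5.31 FPKM in CTL (-2.96 ± 1.19). These are close copies, and reads may be split among them. Of 23 epidermal genes, 14 were lower without overlap, with a median of -0.55, which was -0.20 without CTL replicate 1 and -0.88 without CTL replicate 2. The median of this list had the other sign at 15h, 0.44, and was -0.15 at 9h. The basal keratin Krt14 overlapped (0.01 ± 0.18). Among genes of stressed epidermis, S100a9 had 26.6 and 27.2 FPKM in HF, against 317 and 24.5 FPKM in CTL. The median of -0.62 was 0.02 without CTL replicate 1 and -1.33 without CTL replicate 2. At 15h the median for stressed epidermis was 0.34, and at 9h -0.50. In all, CTL replicate 1 was at least 2-fold above the other 3 libraries for 85 genes, against 3, 27 and 5 genes for HF replicate 3, HF replicate 6 and CTL replicate 2. Whether the cornified skin in CTL replicate 1 or the raised immediate early genes of HF replicate 6 had a part in other differences was not tested. Leaving out both libraries, chosen after seeing the data, leaves a single library in each group. The median was then -1.54 for the interferon effectors. All 36 had to stay below 0 here, because none overlapped between the groups, so that count tests nothing. The median was -0.33 for the T cell genes, with 14 below 0 and 5 above. The 14 that lay lower without overlap had to stay below 0 as well. For the neutrophil genes the median was 0.03, for stressed epidermis 0.01 and for the epidermal genes -0.19.

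**Figure D4:**
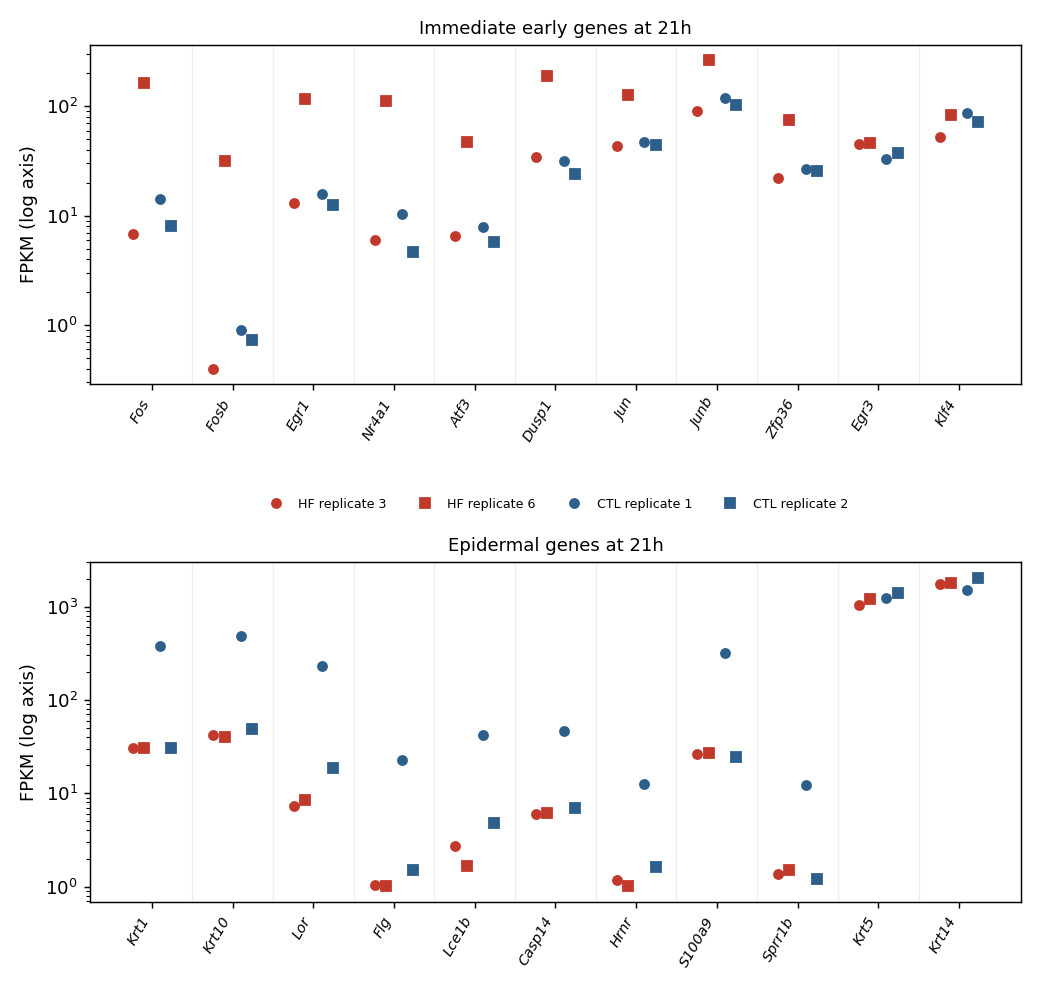
FPKM on a log axis in each of the 4 libraries of 21h, HF in red to the left of CTL in blue, for immediate early genes (top) and epidermal genes (bottom). HF replicate 6 stands above the other 3 libraries in the top panel from Fos to Zfp36, and CTL replicate 1 does so in the bottom panel from Krt1 to Sprr1b.

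Cell cycle genes were slightly lower in HF. Of 26 tested, 19 lay lower without overlap and none higher, all 26 differences were below 0, and the median was -0.23. Rrm2, a subunit of the enzyme that makes DNA building blocks, had 7.71 and 8.09 FPKM in HF, against 12.8 and 10.9 FPKM in CTL (-0.52 ± 0.10, adjusted p = 0.161). Mki67, the proliferation marker, had 9.15 and 9.28 FPKM in HF, against 9.31 and 9.71 FPKM in CTL (-0.04 ± 0.20), a far smaller gap. The shift held as a median of -0.24 without HF replicate 6 and -0.24 without CTL replicate 1.

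Genes of muscle, hair and other parts of the lid showed no common shift at 21h. None of 22 muscle genes was lower without overlap and none was higher (median -0.03). The hair keratins overlapped in all 19 genes (median 0.20), with HF replicate 3 and CTL replicate 2 high together. The 10 conjunctival genes overlapped as well (median 0.04), and Muc5ac, the goblet cell mucin gene, had 10.9 and 38.9 FPKM in HF, against 14.4 and 7.27 FPKM in CTL. Medians were -0.11 for 16 matrix genes, -0.09 for 12 endothelial genes, 0.01 for 10 Schwann cell genes, 0.15 for 8 melanocyte genes, 0.26 for 5 red cell genes and -0.05 for 4 acinar genes. The median was -0.02 for the 18 ribosomal genes, all of which overlapped, 0.03 for 17 respiratory chain genes, 0.04 for 9 mitochondrially encoded genes, 0.07 for 13 heat shock genes and -0.01 for 12 NRF2 targets. Leaving out a single library of 21h turned the sign of the median of each list just given except the heat shock genes, with -0.31 to 0.26 for muscle and -0.20 to 0.62 for hair keratins. Gp2, Psca, Upk3bl and Gprc5a, epithelial surface genes outside these lists, were among the 12 largest differences on the higher side. Gp2 had 46.3 and 67.9 FPKM in HF, against 22.7 and 14.6 FPKM in CTL (1.57 ± 0.49). Psca had 165 and 272 FPKM in HF, against 63.4 and 121 FPKM in CTL (1.27 ± 0.50). Neither overlapped, but their standard errors were wide and their adjusted p-values were 0.592 and 0.818.

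**Figure D5:**
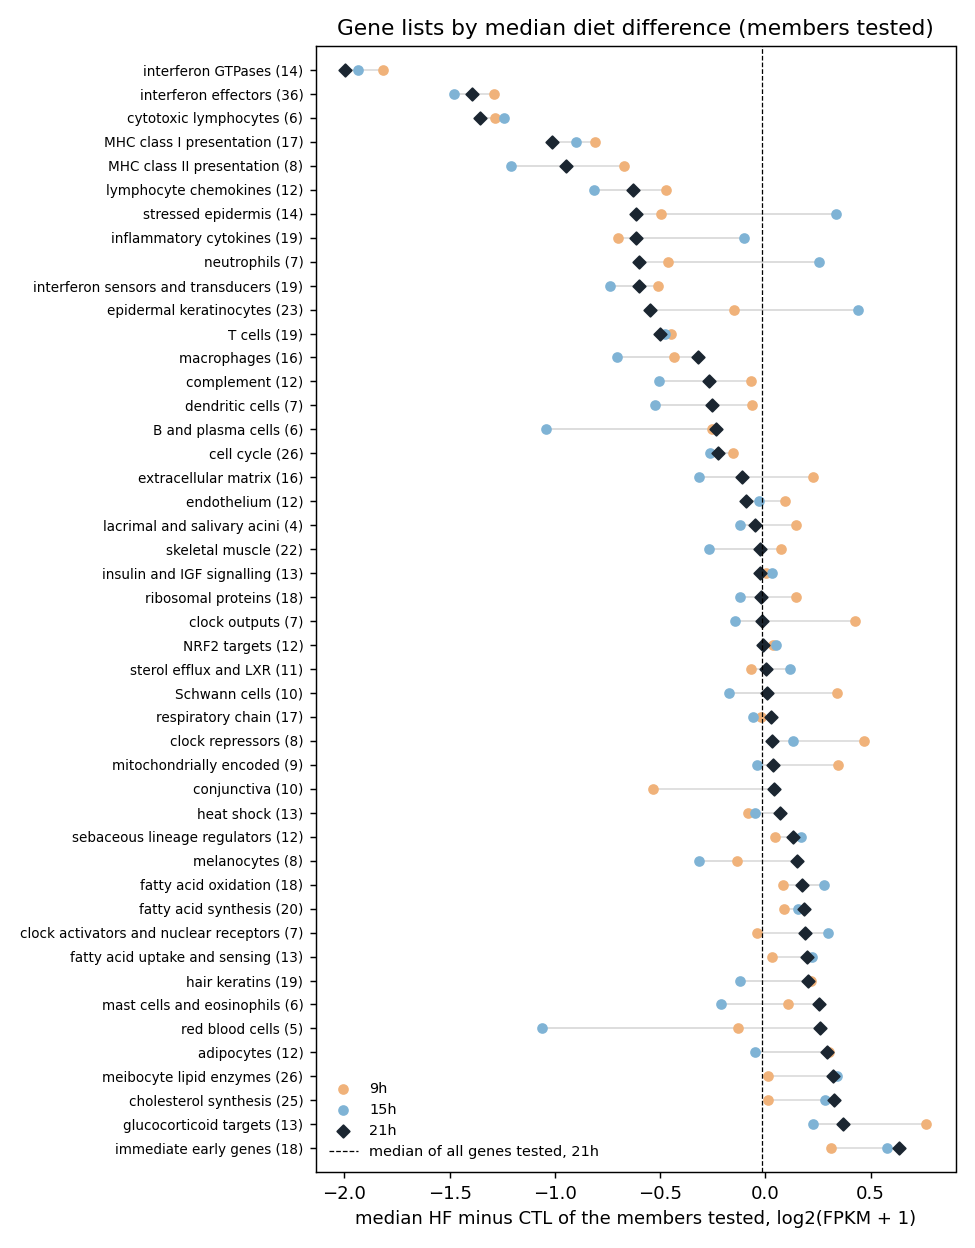
Median difference HF minus CTL on log2(FPKM + 1) over the tested members of each of 46 gene lists at 9h, 15h and 21h, ordered by the value at 21h, with the number tested in brackets. The interferon GTPase, interferon effector, cytotoxic and MHC lists lie furthest below the median of all genes at 21h. Their values at 9h and 15h lie on the same side, with MHC class II at -0.67 at 9h and -1.21 at 15h, against -0.95 at 21h.

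Whether the diet difference at 21h departed from that at the other times was tested as the difference at 21h minus the mean of those at 9h and 15h. No gene was called by limma, with 149 genes at an unadjusted p under 0.05 (1.13%), 78 above 0 (0.59%) and 71 below (0.537%), and none was called by limma-voom on recovered reads. All 36 interferon effectors tested were apart and lower at 21h, and 35 of them were so at all 3 times. Of all 13228 genes tested, 2937 were apart and lower at 21h, and 468 (3.54%) were so at all 3 times. Oas1a differed by -2.18 at 21h, -2.45 at 15h and -2.38 at 9h, and its contrast was 0.23 ± 0.39. For Gbp2 the same values were -2.76, -2.65 and -3.01. Among genes with a mean of at least 2 FPKM at 21h and no clone or accession name, the smallest p belonged to a low entry named Aldoa (ENSMUSG00000114515). This entry is not the abundant aldolase gene of the same symbol, and had 2.93 and 2.78 FPKM in HF, against 1.35 and 2.13 FPKM in CTL. It differed by 0.51 at 21h, -0.92 at 15h and -0.44 at 9h, a contrast of 1.19 ± 0.21 (unadjusted p = 0.000253, adjusted p = 1.00). Usp2, a deubiquitinase gene that follows the clock, had 5.93 and 6.99 FPKM in HF, against 7.21 and 6.19 FPKM in CTL. Those values overlapped, with differences of -0.05 at 21h, 0.24 at 15h and 0.91 at 9h and a contrast of -0.62 ± 0.16. Sdr9c7, a dehydrogenase of the skin lipid barrier, had 2.34 and 3.68 FPKM in HF, against 10.7 and 5.17 FPKM in CTL and was highest in CTL replicate 1 (-1.11 at 21h, 0.65 at 15h). None of these contrasts passed the adjustment.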

How the data were processed

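The authors deposited FPKM values, reads scaled to exon length and library depth, for 21936 genes in 12 eyelid libraries. Per the labels, RNA was isolated by Trizol and an NEB kit for Illumina served for the libraries. HISAT2 2.0.5, HTSeq 0.9.1, DESeq 1.30.0 and the build mm9 are named in the submitters' processing notes, while the strand setting, the annotation and the step to FPKM were not given in the sources used here. GENCODE M21 on GRCm38 holds 21894 of the IDs, and its merged exon lengths made 98.05% to 98.2% of the nonzero values whole reads within 0.02, at 14096362 to 17889158 reads per library. Coordinates are on GRCm38 and none were converted.

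Genes above 1 FPKM in at least 2 of 12 libraries (13228) were tested with limma 3.58.1 in R 4.3.3 (trended prior) on log2(FPKM + 1), with a mean for each of 6 diet and time groups, 6 residual degrees of freedom and Benjamini-Hochberg adjustment. Contrasts were HF minus CTL at 21h, and that difference minus the mean of those at 9h and 15h. The scripts were tested on simulated data. The members and the 46 gene lists were chosen with earlier results of these data known, so lists are described by counts and medians with no test of their own. A symbol held by 2 IDs counts once in a list, by its more abundant ID. Outside the lists, the text could name called genes, the 12 largest differences each way (unadjusted p under 0.05, at least 2 FPKM, no overlap), the 12 smallest p-values and the 8 smallest for the contrast of times. Alternatives were the pseudocount, the filter, the prior, library weights, scaling, limma-voom on recovered reads, the 4 libraries of 21h alone, and leaving out each library. Genes under the filter were not tested, and some genes that entered the counts are not reported here by name.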

Additional observations from a re-analysis of the deposited data

Results flagged for a closer look

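Some results lay apart in opposite directions at 21h and at another time, with HF and CTL libraries not overlapping at either. The difference between the pair of times was not tested for any of them, and the contrast of 21h against the mean of the other times left every gene named here at an adjusted p of 1.00 in limma. HF minus CTL on log2(FPKM + 1) was 0.84 at 21h and -0.23 at 15h for Upk3bl, a gene of surface epithelia. It was 0.51 at 21h, -0.92 at 15h and -0.44 at 9h for the low entry named Aldoa (ENSMUSG00000114515). For Ttc30b, a cilium gene, it was 0.22 at 21h, -0.49 at 15h and -0.01 at 9h. It was -0.44 at 21h and 0.36 at 15h for Entpd3, -1.11 and 0.65 for Sdr9c7, and -0.26 and 0.49 for Ankrd35. For Mb21d2 it was -0.42 at 21h and 0.17 at 9h. The mean log2(FPKM + 1) of the mast cell and eosinophil genes differed by 0.32 at 21h and -0.31 at 15h, and that of the heat shock genes by 0.05 at 21h and -0.08 at 15h.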

How the results depend on the processing

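No paired analysis was possible because the groups of 21h share no replicate number. The 1 gene called at 21h (Cxcr3, lower) became 0 with a pseudocount of 0.1, with no filter on low values, with the 4 libraries of 21h alone and with limma-voom on recovered reads, and 2, all lower, with library weights, median centring or trimmed mean scaling. Leaving out a library gave 0 to 27 calls, all lower. The 27 appeared without either HF_15h library, which by construction removes the spread of that pair from the error. They were the same 27 genes, 23 of them in the interferon and MHC lists, and leaving out each of the other 10 libraries gave 0. The adjusted p of Cxcr3 lay between 0.0131 and 0.373 over all alternatives. The direction was reversed for Mad2l1bp (-0.001 to 0.0802 over the leave-outs, below 0 without HF_21h replicate 6) and Usp2 (-0.148 to 0.057, above 0 without HF_21h replicate 3 or CTL_21h replicate 1). The contrast of times gave 0 calls throughout. Scaling moved the median of all genes to at most 0.03. Leaving out libraries HF_21h replicate 6 and CTL_21h replicate 1 together was chosen after seeing the data. Depth limits genes near 1 FPKM, and a pair of libraries a group limits all others.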
